A study of Mus musculus with 8 samples.

Results

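Pi16, Dpp4, Ackr4, Cd81, Cd34, Ly6a and Ly6c1 are markers of adventitial fibroblasts and of trophocytes, the CD81-positive fibroblasts that lie beneath the crypts. They were taken by symbol from the deposited tables, and all 7 were found among 24346 gene symbols. All 7 passed the filter of a mean FPKM of at least 1 (fragments per kilobase of transcript, scaled to the mapped fragments of the library), as 11506 genes did. The genes were named by symbol and not by their values, although the set was proposed with earlier results of these data known.

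RNA was sequenced from live colonic stroma of 12-week-old mice, sorted for podoplanin and against 7AAD, EpCAM, CD31 and CD45. In the control group (4 mice, titled WT) the genotype is Il10ra flox/flox. In the cKO group (4 mice) it is Pdgfra cre; Il10ra flox/flox, so that both groups carry the floxed alleles of the interleukin-10 receptor gene and only the cKO mice carry Cre, under control of the fibroblast gene Pdgfra. There is no group with Cre alone, and the sex of the mice is not given in the labels. The series' title names type I interferon signalling as the process under study, and the comparison of cKO with control addresses it.

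Adventitial fibroblasts sit in the outer sheath of vessels and in the submucosa, and cells expressing Pi16 and Dpp4 are known as a reservoir of less specialised fibroblasts in many organs. In the gut, CD81-positive PDGFRA-low cells, many of them positive for Ackr4, supply the crypt base with R-spondins, Wnt ligands and Gremlin 1. Pi16 encodes a secreted peptidase inhibitor of the CAP superfamily, Dpp4 a surface serine peptidase (CD26), and Ackr4 a scavenging receptor for the chemokines CCL19, CCL21 and CCL25. Cd81 encodes a tetraspanin that organises other membrane proteins, Cd34 a surface sialomucin, and Ly6a (Sca-1) and Ly6c1 small proteins held on the membrane by a lipid anchor. Cd34, Ly6a and Ly6c1 are also expressed by blood endothelium, Ly6a is known to be inducible by interferon, and Dpp4 is also made by enterocytes and T cells.

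Promoter windows of 6 of the 7 genes were found by symbol in the RefSeq table (GRCm38.p6, which is the mm10 build the submitters' processing notes name), and Ly6a was not matched. The windows of the 3 genes with a lower mean in cKO at an unadjusted p under 0.05 (Pi16, Dpp4 and Ackr4) are shown. That of Cd81, whose group means were within 1% of each other, is shown as an example of a level marker. Each runs from 250 bases before to 50 after a RefSeq start of transcription, on the strand of the gene. The Pi16 and Ackr4 windows lie wholly within the GENCODE gene spans (from 29317680 for Pi16, up to 104126933 for Ackr4). Their starts are therefore not the outermost ones of the positions printed below. Capitals mark matches on either strand to 5 motifs. They are the core of the interferon-stimulated response element, the STAT site TTCNNNGAA, known as GAS, the TATA box as TATAAA, the CCAAT box as CCAAT, and the GC box as GGGCGG.
Pi16, chr17:29318632-29318931, plus strand: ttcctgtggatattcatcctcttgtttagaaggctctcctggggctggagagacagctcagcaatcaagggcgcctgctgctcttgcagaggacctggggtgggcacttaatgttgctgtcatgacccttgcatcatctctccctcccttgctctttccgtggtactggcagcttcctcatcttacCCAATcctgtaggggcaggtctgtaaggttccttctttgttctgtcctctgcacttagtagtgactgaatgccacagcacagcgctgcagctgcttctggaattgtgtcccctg
Dpp4, chr2:62412182-62412481, minus strand: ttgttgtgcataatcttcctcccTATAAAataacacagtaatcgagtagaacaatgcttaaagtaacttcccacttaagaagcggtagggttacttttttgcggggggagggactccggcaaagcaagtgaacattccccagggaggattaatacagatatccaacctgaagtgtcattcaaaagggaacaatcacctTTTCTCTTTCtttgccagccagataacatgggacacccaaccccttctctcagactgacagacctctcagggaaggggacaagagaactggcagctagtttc
Ackr4, chr9:104126594-104126893, minus strand: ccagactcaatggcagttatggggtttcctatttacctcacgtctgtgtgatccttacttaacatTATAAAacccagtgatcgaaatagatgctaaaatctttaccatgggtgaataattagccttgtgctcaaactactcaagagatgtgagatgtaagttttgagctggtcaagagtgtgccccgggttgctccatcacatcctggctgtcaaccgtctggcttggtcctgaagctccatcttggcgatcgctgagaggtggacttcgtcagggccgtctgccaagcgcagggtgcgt
Cd81, chr7:143052500-143052799, plus strand: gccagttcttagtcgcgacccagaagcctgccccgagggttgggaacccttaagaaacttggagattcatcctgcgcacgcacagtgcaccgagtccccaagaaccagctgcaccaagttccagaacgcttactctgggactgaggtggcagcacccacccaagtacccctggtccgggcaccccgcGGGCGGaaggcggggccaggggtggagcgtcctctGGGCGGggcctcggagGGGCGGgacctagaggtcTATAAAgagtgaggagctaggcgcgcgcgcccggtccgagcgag

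Of the 5 motifs, the Dpp4 window held a match to the interferon-stimulated response element, which begins at position -52 from the start site, and 3.44% of all 32851 promoter windows of this length hold one. It also held a TATA box at -227. The Ackr4 and Cd81 windows held TATA boxes at -185 and 6, and 13.6% of all windows hold one. The Pi16 window held a CCAAT box at -64, as 37.4% of all windows do. No window of the 6 matched genes held a GAS match, which 8.3% of all windows do. The Cd81 window had 23 CpG dinucleotides and 65.7% G and C, with 3 GC boxes (35.7% of windows hold at least 1). The Pi16, Dpp4 and Ackr4 windows had 3, 4 and 10 CpG and 53.3%, 45.3% and 48.7% G and C, against medians of 7 and 52.7% over all windows. A match describes letters only.

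Depth, read from the steps between low values, was close to even, from 0.869 to 1.10 times that of control replicate 1, at an estimated 17600000 fragments in that library (quartiles 14400000 and 17700000 over 72 long genes). Correlations of log2 values between libraries were 0.965 to 0.989. Il10ra itself was at 0.842, 0.665, 0.614 and 0.403 FPKM in control replicates 1 to 4 and at 0.439, 0.273, 0.633 and 0.636 in cKO replicates 1 to 4 (two-sided exact permutation p = 0.4). The labels do not name the deleted part, so this value does not check the genotype. cKO replicate 1 stood apart by its epithelial transcripts. The summed FPKM of 15 epithelial markers was 1196 there and 561 in cKO replicate 2, against 54.4 to 149 in the other 6 libraries.

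The 7 markers were abundant, and their order was nearly fixed across mice. Over all 8 libraries the mean FPKM, a level per transcript length, was 1511 ± 59.2 (SD) for Ly6a, 944.8 ± 39.5 for Cd34 and 767 ± 41.9 for Ly6c1. It was 586 ± 26.9 for Cd81, 566 ± 94.9 for Pi16, 232.5 ± 24.7 for Ackr4 and 37.6 ± 5.67 for Dpp4. Ly6a ranked 25th and Cd34 62nd of the 11506 genes, whereas Dpp4 ranked 1999th. Each gene exceeded the next in that order in 8 of 8 libraries with separate ranges, except Cd81 and Pi16, where Cd81 was higher in 4 of 8. The mean ratio of Pi16 to Cd81 was 1.08 ± 0.122 in control and 0.857 ± 0.158 in cKO (SD of 4 mice; p = 0.0571 by exact permutation, two-sided).

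**Figure D1:**
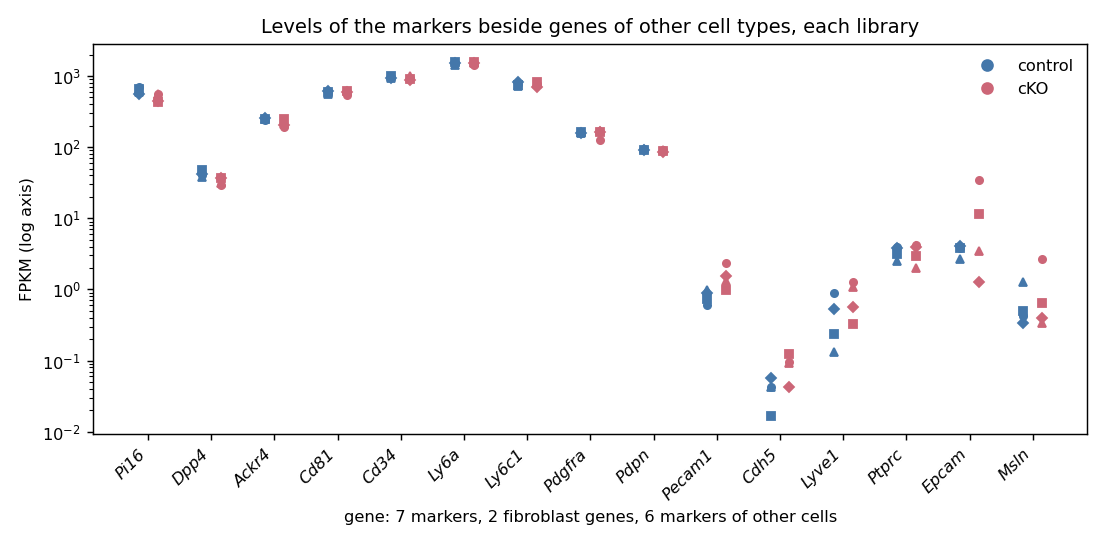
FPKM on a log axis of the 7 markers, 2 fibroblast genes and 6 genes of other cell types, with 1 point per library (control in blue, cKO in red). The markers lie between 29.4 and 1586 FPKM, while the endothelial genes Pecam1 and Cdh5 lie at or below 2.37 and 0.126.

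Defining fibroblast genes were abundant. Pdgfra was at 158 ± 1.91 FPKM in control and 155 ± 19.0 in cKO, the sort marker Pdpn at 92.3 ± 1.82 and 88.7 ± 3.29, and the matrix proteoglycan gene Dcn at 7055 ± 277 and 7098 ± 277 (SD of 4 mice). Endothelial genes were low: Pecam1, which encodes the CD31 used to exclude endothelium, ran from 0.594 to 2.37 and Cdh5 from 0.0165 to 0.126 FPKM. The endothelial list (16 genes, 6 tested, 0 listed at 0 in all libraries) summed to 123 to 132 FPKM in control and 125 to 134 in cKO, of which Tek and Eng made up most. The sum mostly followed these abundant genes. Tek had a lower mean in cKO, while the less abundant Pecam1, Plvap and Esam had higher means. At 69.0 to 85.0 FPKM in cKO, Tek was far above Pecam1 and Cdh5. It may therefore not measure endothelium here, and which cells it came from was not tested. Ptprc, which encodes CD45, reached at most 4.15 FPKM.

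No marker passed the test between genotypes. In limma (log2(FPKM + 1), Benjamini-Hochberg adjusted p under 0.05 over all 11506 genes) 0 of 7 were called, against a background of 0.00869%, which is 1 gene, Mir5098. At an unadjusted p under 0.05, 3 of 7 had a lower mean in cKO (Pi16, Dpp4 and Ackr4) and 0 a higher one, against 3.03% and 2.37% of all tested genes (5.41% in either direction). In 1 of 7, Dpp4, the groups did not overlap, against 3.26% of tested genes in either direction. Of the other 4, Cd34 had the largest difference between group means, -3.43%. In bulk RNA, fewer cells of a type and less RNA per cell cannot be told apart.

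**Figure D2:**
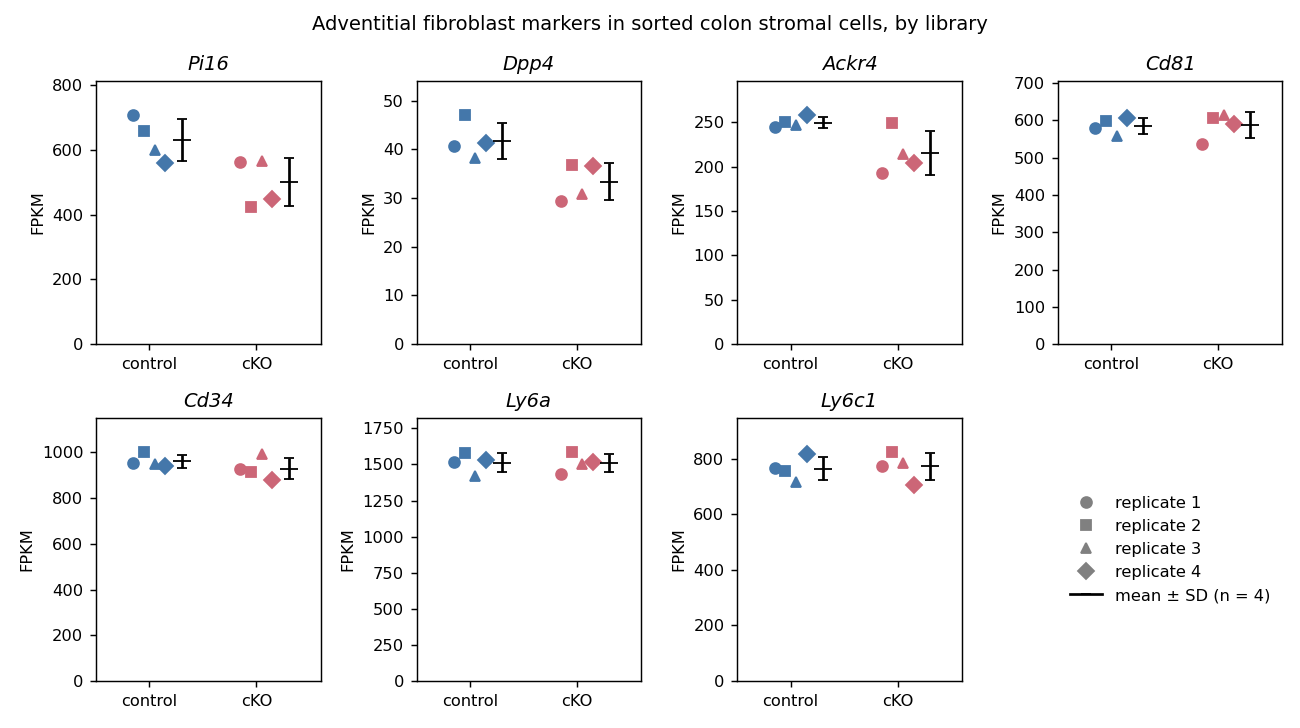
FPKM of the 7 markers in each library, with symbols for the replicate number and bars for the mean ± SD of 4 mice. The 4 cKO values of Dpp4 lie below the 4 control values, those of Pi16, Ackr4 and Cd34 overlap the control values in part, and those of Cd81, Ly6a and Ly6c1 lie on both sides of the control means.

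Dpp4 (chromosome 2, 62330073 to 62412231, minus strand, protein coding, mm10) had an FPKM of 40.7, 47.0, 38.2 and 41.2 in control replicates 1 to 4. In cKO replicates 1 to 4 it was 29.4, 36.7, 30.9 and 36.5. The groups did not overlap, with the highest cKO value just under the lowest control value, and 1.9% of tested genes had all cKO values below all control values. The mean was 41.8 ± 3.70 in control and 33.4 ± 3.77 in cKO (SD of 4 mice), a change of -20.1%. The limma difference was -0.32 (SE 0.09, 95% interval -0.52 to -0.12, adjusted p = 0.897), and the two-sided exact permutation p of 0.0286 is the smallest that 4 against 4 can give. Dpp4 is the lowest of the 7, and its smallest library held an estimated 2860 fragments, a counting error of about 1.87%.

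Pi16 (chromosome 17, 29317680 to 29330593, plus strand, protein coding) was at 706, 659, 598 and 561 FPKM in control replicates 1 to 4 and at 563, 424.5, 566 and 449 in cKO replicates 1 to 4. cKO replicates 2 and 4 were below every control, and replicates 1 and 3 lay just above the lowest control. The mean was 631 ± 64.4 in control and 501 ± 74.6 in cKO (SD of 4 mice), a change of -20.7%. In limma the difference was -0.34 (SE 0.11, 95% interval -0.59 to -0.09, adjusted p = 0.897), with an exact permutation p of 0.0857. Pi16 had the widest spread of the 7 between mice of a group, 0.19 on the log2 scale against a median of 0.13 over all tested genes.

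Ackr4 (chromosome 9, 104084157 to 104126933, minus strand, protein coding) was at 244, 250.2, 246.5 and 258 FPKM in control replicates 1 to 4, a range of few percent. In cKO replicates 1 to 4 it was 193, 249.6, 214 and 204. Only cKO replicate 2 reached the control range, and the other 3 lay below it. The mean was 249.7 ± 5.95 in control and 215 ± 24.4 in cKO (SD of 4 mice), a change of -13.8%, with a limma difference of -0.22 (SE 0.07, 95% interval -0.38 to -0.05, adjusted p = 0.897; exact permutation p = 0.0857). Without cKO replicate 2 the difference was -0.29 (adjusted p = 0.565). Part of Ackr4 (479 exonic bases) overlaps Acad11 on the opposite strand. Acad11 was at 7.55 to 10.5 FPKM, far below Ackr4, and whether the counting used strand is not given in the sources used here.

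Pi16 and Dpp4 differed in which mice were low. Within the cKO group the mice lowest in Pi16 (replicates 2 and 4) were the highest in Dpp4, and replicate 1, the lowest in Dpp4 and Ackr4, was close to the highest cKO value of Pi16. With group means removed, Pearson's r over the 8 libraries was -0.53 for Pi16 and Dpp4 and -0.61 for Pi16 and Ackr4, against 0.52 for Dpp4 and Ackr4. These r values describe 8 libraries and carry no test.

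Cd81 (chromosome 7, 143052739 to 143067934, plus strand, protein coding), the surface marker by which trophocytes are gated, was level between genotypes. It was at 579, 599, 558 and 606 FPKM in control replicates 1 to 4 and at 537, 607, 614 and 590.3 in cKO replicates 1 to 4. The cKO group held both the lowest and the highest value. Its limma fold was 1.00 (95% interval 0.919 to 1.09, adjusted p = 0.996).

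Cd34 (chromosome 1, 194938819 to 194961279, plus strand, protein coding) was at 953, 1002, 949 and 941 FPKM in control replicates 1 to 4. In cKO replicates 1 to 4 it was 927, 913, 992 and 881. Here 3 of 4 cKO mice were below the lowest control and the fourth was among the highest of all. The fold was 0.965 (95% interval 0.891 to 1.05, adjusted p = 0.948), and its sign turned with quantile normalization (0.03 on the log2 scale).

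Ly6a (chromosome 15, 74994877 to 74998031, minus strand, protein coding) was at 1515, 1579, 1423 and 1534 FPKM in control replicates 1 to 4 and at 1435, 1586, 1502 and 1518 in cKO replicates 1 to 4. The groups overlapped throughout, with means of 1513 ± 65.6 and 1510.1 ± 62.3 (SD of 4 mice). The fold was 0.998 (95% interval 0.918 to 1.09, adjusted p = 0.996). Ly6c1 (chromosome 15, 75044018 to 75048830, minus strand, protein coding) lies 46.0 kb from Ly6a in the same gene cluster. It was at 766, 756, 715 and 816 FPKM in control and at 774, 823, 782 and 706 in cKO replicates 1 to 4, with a fold of 1.01 (95% interval 0.918 to 1.11, adjusted p = 0.991).

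The values of both Ly6 genes are uncertain in part, because copies share sequence. Of the 50-base words in their annotated transcripts, 19.0% of those of Ly6a and 32.8% of those of Ly6c1 also occur in another gene. Ly6a shares 15.0% of its words with Ly6c1, and Ly6c1 shares 21.5% of its words with Ly6c2, which was listed at 1.16 to 5.25 FPKM. For the other 5 markers the share was 0.87% to 7.21%.

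**Figure D3:**
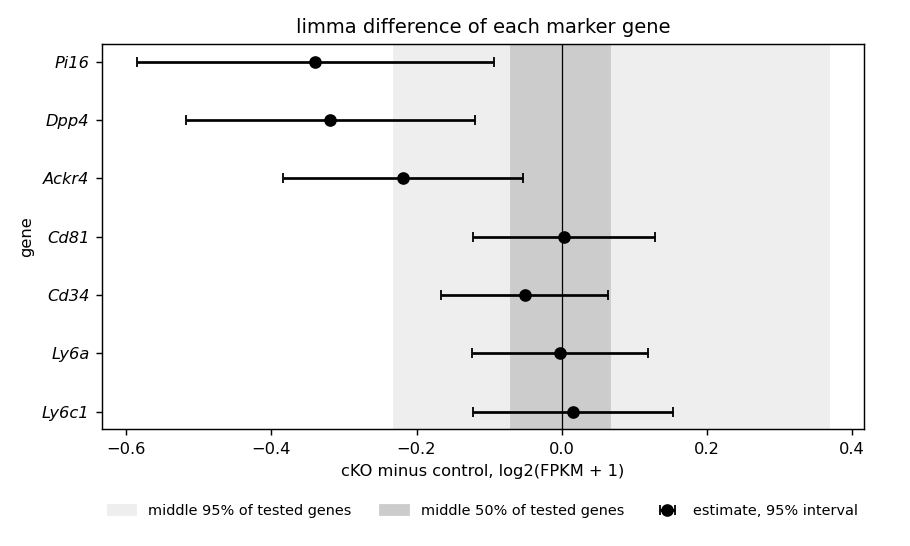
limma difference of each marker, cKO minus control on the log2(FPKM + 1) scale, with 95% intervals that are not adjusted for the number of genes. Shading gives the middle 50% and 95% of the differences of all tested genes: Pi16 and Dpp4 lie beyond the lower end of the 95% band (-0.23), Ackr4 (-0.22) lies just inside it, and the other 4 lie within -0.05 to 0.01.

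Ratios within a library do not depend on how libraries are scaled. Of the 21 ratios between markers, 5 did not overlap between genotypes, each with a two-sided exact permutation p of 0.0286, the smallest possible, and 0.12 after Benjamini-Hochberg adjustment over the 21. All 5 set Dpp4 or Ackr4 over a marker with level means. Dpp4 over Cd81 was 0.0713 ± 0.00483 in control and 0.0568 ± 0.00529 in cKO, and Dpp4 over Ly6a 0.0276 ± 0.00144 and 0.0221 ± 0.00180 (SD of 4 mice). Ackr4 over Cd81 was 0.427 ± 0.0107 and 0.366 ± 0.0302, over Ly6a 0.165 ± 0.00670 and 0.142 ± 0.0107, and over Ly6c1 0.328 ± 0.0130 and 0.279 ± 0.0229. The ratios share genes and are not separate pieces of evidence. Dpp4 itself did not overlap, so its ratios to level markers in part repeat that result. How often ratios of other gene pairs do not overlap was not computed. Among Cd81, Cd34, Ly6a and Ly6c1, all 6 ratios overlapped, and Cd81 over Ly6a was 0.387 ± 0.00771 in control and 0.389 ± 0.0145 in cKO.

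**Figure D4:**
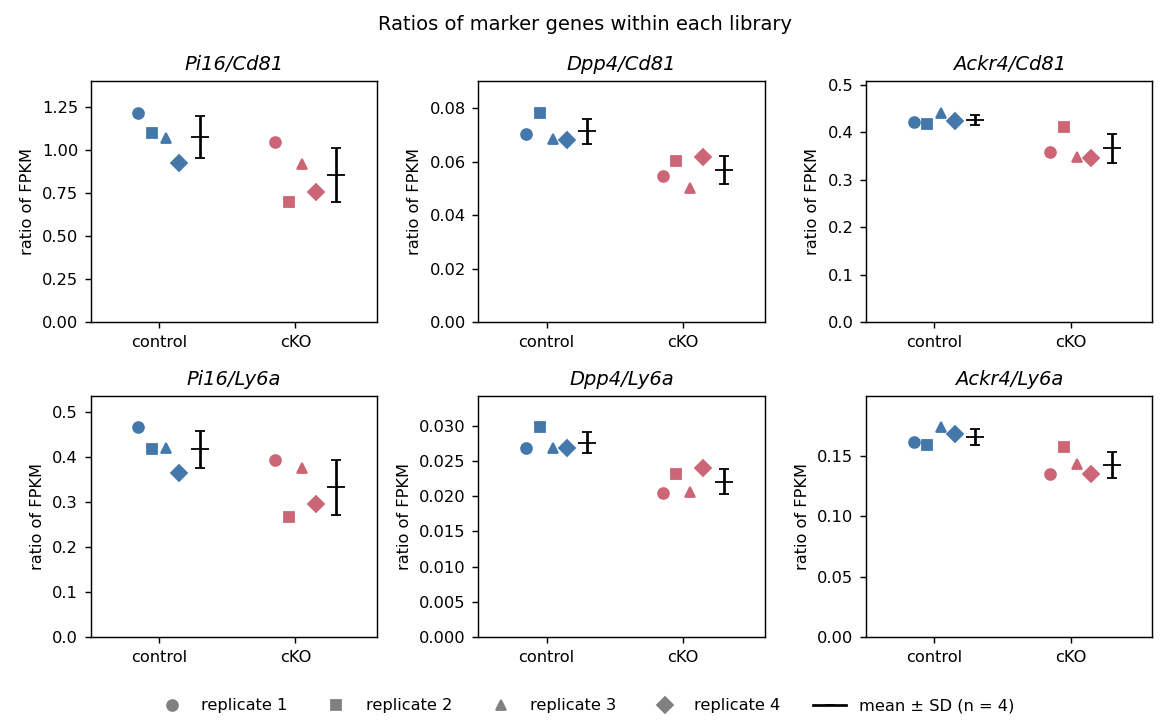
Ratio of the FPKM of Pi16, Dpp4 or Ackr4 to that of Cd81 or Ly6a in each library, with the mean ± SD of 4 mice. For Dpp4 and Ackr4 the 4 cKO ratios lie below the 4 control ratios; for Pi16 the groups overlap.

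Over the 8 libraries, 0 of the 21 correlations between markers passed after adjustment over the 21 pairs (smallest adjusted exact permutation p = 0.193 for Pearson and 0.161 for Spearman). Dpp4 and Ackr4 had r = 0.80 (exact permutation p = 0.0169) and rho = 0.86 (p = 0.0107, exact), and r = 0.68 without the 2 libraries farthest from the median of Dpp4. Pi16 and Cd34 had r = 0.73 (exact permutation p = 0.0366) and rho = 0.83 (p = 0.0154, exact), but r = 0.30 without 2 such libraries, so that this relation rests on cKO replicates 2 and 4. Cd81 and Ly6a had r = 0.81 (exact permutation p = 0.0184) and rho = 0.60 (p = 0.132, exact), with r = 0.21 without control replicate 3 and cKO replicate 1.

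The genes most like each marker were taken as the highest Pearson r over the 8 libraries among 7701 others with a mean FPKM of at least 5. For Pi16 they included Skil (r = 0.97) and Krtdap (0.96). For Dpp4 they were Arpc1a (0.95), Nup85 (0.93) and Rnf6 (0.93), and for Ackr4 Lamb2 (0.96), Phyhd1 (0.95) and Gstm2 (0.95). For Cd81 they were Col6a3, B3galnt2 and Fgf9, for Cd34 Mrpl42, Fam53a and Cdc123, for Ly6a Ccdc25, Mtmr2 and Reep4, and for Ly6c1 Trak1, Tom1 and Ppcs (r = 0.91 to 0.97). No gene was named for more than 1 marker. With 8 libraries and 7701 genes, r values of this size are reached by selection, and they describe these libraries only.

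A wider list of 27 other adventitial markers had lower means, as Pi16 did. All 27 were tested and had a lower mean in cKO, with a median difference of -0.11, where 52.6% of all tested genes had a lower mean and their median difference was -0.01. None of the 27 was called. At an unadjusted p under 0.05, 3.03% of all tested genes were lower, and so were 5 of the 27. They were Adgrd1, an adhesion receptor (149 ± 11.2 FPKM in control and 130.01 ± 8.10 in cKO), Gfpt2, an enzyme of hexosamine synthesis (1121 ± 119 and 968 ± 63.8), Limch1 (8.52 ± 0.128 and 7.42 ± 0.696), the semaphorin gene Sema3c (165 ± 6.96 and 151 ± 8.02) and Fbn1, which encodes fibrillin (421 ± 38.7 and 375 ± 22.3; SD of 4 mice). Fbn1 was named after its value was seen. Only Limch1 had all cKO values below all control values, as 1.9% of all tested genes did. The most abundant were Dpt, a matrix protein gene (1387 ± 38.3 and 1359 ± 128), Has1, a hyaluronan synthase gene (1451 ± 182 and 1239 ± 180), and Mfap5 (1224 ± 13.1 and 1111 ± 124). The list was written with earlier results of these data known, so its count is no independent evidence. How far its genes vary together was not computed.

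Not every setting gave a lower mean for all of them. Between 24 and 27 members were lower when a library was left out, 26 under quantile normalization and under a fixed sum per library, 24 when libraries were scaled to 10 pan-fibroblast genes, and 23 with the endothelial list mean as a covariate. The pan-fibroblast genes had a median difference of -0.04, with 9 of 10 lower in cKO and 0 at an unadjusted p under 0.05. Their direction moved with the setting: 5 of 10 were lower with a fixed sum per library, 4 of 10 with their own scaling, 3 of 10 without cKO replicate 1 and 2 of 10 with the endothelial covariate.

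**Figure D5:**
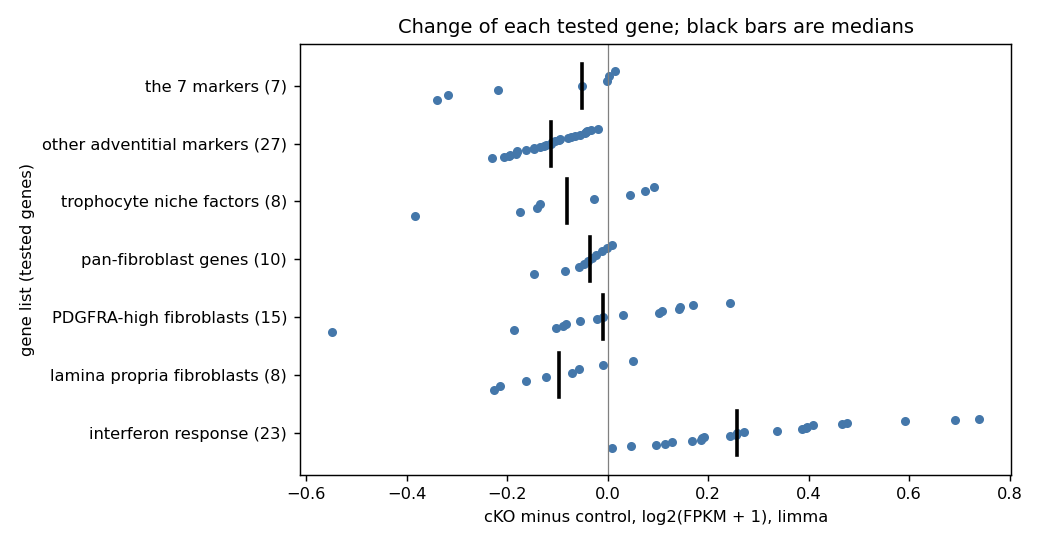
limma difference of each tested gene, cKO minus control on the log2(FPKM + 1) scale, in 7 lists, with black bars for the medians. The 27 other adventitial markers lie below 0, the 23 interferon response genes lie above it, and the other fibroblast lists lie on both sides.

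Trophocyte niche factors had means on both sides. Of 12 genes 8 were tested, 5 with a lower and 3 with a higher mean in cKO (median -0.08), and 0 were called. Leaving out cKO replicate 1 gave a median of -0.0032, leaving out cKO replicate 4 one of -0.0044, and leaving out control replicate 3 one of -0.03. It was above 0 with no filter (0.0087, 6 of 12 lower) and with the endothelial or epithelial covariate (0.0047 and 0.02, 3 of 8 lower in each). The BMP antagonist genes Grem1 (7.81 ± 1.86 FPKM in control and 5.67 ± 0.764 in cKO) and Chrd (25.5 ± 0.872 and 23.05 ± 1.67) had a lower mean at an unadjusted p under 0.05, as 3.03% of all tested genes did. The Wnt ligand genes Wnt2b (14.6 ± 0.844 and 13.2 ± 3.71) and Wnt2 (14.8 ± 1.83 and 13.6 ± 3.44) overlapped, as did the abundant Dkk3 (115 ± 12.0 and 118 ± 4.59) and Sfrp1 (69.3 ± 12.8 and 67.3 ± 6.20). With no filter the R-spondin genes Rspo1, Rspo2 and Rspo3 had higher means, with log2 differences of 0.07, 0.15 and 0.09. Nog (0.43) and Dkk2 (0.08) were also higher in the mean. None of these had an unadjusted limma p under 0.05, and some did not pass the filter. They were named after their values were seen. Markers of PDGFRA-high subepithelial fibroblasts had a median of -0.01 (8 of 15 lower, 7 higher), and Wnt5b had the smallest unadjusted p among them (13.3 ± 1.94 and 15.9 ± 1.68). Lamina propria fibroblast markers had a median of -0.10 (7 of 8 lower), and of 0.0012 (4 of 8 lower) without cKO replicate 2.

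Relatives and partners of the markers gave 0 calls. In the Ly6 family 6 of 10 genes in the table were tested, and Ly6e, a broadly expressed member, had all cKO values above all control values (206 ± 15.1 and 233 ± 6.15 FPKM; adjusted p = 0.897), as 1.36% of tested genes did. Among tetraspanins and CD81 partners, 12 of 15 tested genes had a higher mean, where 5451 of all 11506 did. That count ran from 8 without cKO replicate 4 to 14, the latter for example with quantile normalization. The most abundant were Cd63 (1190 ± 23.1 and 1172 ± 45.8) and Cd9 (612 ± 40.3 and 638 ± 13.3). Fap, a close relative of Dpp4 and also a fibroblast gene, was at 71.7 ± 6.56 and 66.7 ± 7.09. Ackr3, another scavenging chemokine receptor, was at 374 ± 46.7 and 360 ± 10.3, and Ackr2 at 18.2 ± 1.53 and 16.6 ± 3.27. Ccl21a, which encodes a ligand of ACKR4, was listed near 0 in 3 control libraries and at 4.49 in the fourth, against 4.81 to 11.9 in cKO. Its value is uncertain because near-identical copies share fragments. The CAP family gene Crispld2 was at 163 ± 20.5 and 161 ± 15.6, and the sialomucin gene Podxl2 at 15.5 ± 1.78 and 14.0 ± 0.803.

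The interferon-inducible Ly6a stayed level while interferon response genes were higher in the mean. All 23 tested interferon genes had a higher mean in cKO (median 0.26), 8 at an unadjusted p under 0.05, and 0 were called. Of all 11506 tested genes 5451 had a higher mean, and 2.37% were higher at that unadjusted p. The interferon count was 22 of 23 under quantile normalization, and without control replicate 3 or 4 or cKO replicate 2, 3 or 4. Its median ran from 0.18 without cKO replicate 2 to 0.45 with the endothelial covariate. B2m was at 881 ± 72.9 FPKM in control and 1162 ± 127 in cKO and Usp18, a brake on the interferon receptor, at 7.01 ± 0.628 and 10.2 ± 1.45 (SD of 4 mice). The difference between Ly6a and these genes was not tested. It covers Ly6a only: of 6 other Ly6 genes tested, 4 had a higher mean in cKO and 2 a lower one. Among the 4, Ly6e had all cKO values above all control values, as 1.36% of tested genes did.

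Markers of other cell types gave 0 calls in the endothelial, epithelial and leukocyte lists. Among tested endothelial genes 5 of 6 had a higher mean in cKO, 3 of them at an unadjusted p under 0.05 (Pecam1, Plvap and Esam). Tek, the most abundant, was lower at that p, with all cKO values below all control values. Of all tested genes 2.37% were higher and 3.03% lower at that p, and 1.9% had all cKO values below. The endothelial list mean per library, Tek included, was 2.67 to 2.83 on the log2 scale in control and 2.87 to 3.50 in cKO. With it as a covariate the difference of Dpp4 was -0.14, that of Ackr4 -0.06 and that of Pi16 -0.50 on the log2 scale. Because this list mean does not overlap between the genotypes, its part and that of the genotype cannot be told apart. Of 7 lymphatic endothelial genes 1 was tested, Ccl21a, and 0 were called. Their summed FPKM was 0.720 to 5.51 in control and 6.22 to 15.4 in cKO, with Ccl21a, whose value is uncertain, a large part. With no filter 6 of 7 had a higher mean in cKO (median 0.19, against 0.0037 over all genes). The part of lymphatic endothelium in the marker values was not tested. Epithelial markers had a higher mean in cKO for 15 of 15 genes, with Guca2a at 18.1 ± 9.51 and 114 ± 128 and Car1 at 21.7 ± 11.3 and 100.2 ± 85.3 FPKM. None of the 15 had an unadjusted p under 0.05, and cKO replicate 4 had the lowest epithelial sum of the 8 libraries. The median epithelial difference was 0.88, and 0.18 (12 of 13 higher) without cKO replicate 1, which had the highest sum. Without that library the marker differences were -0.26 for Dpp4, -0.40 for Pi16 and -0.17 for Ackr4. Leukocyte markers summed to 93.2 to 160 FPKM in control and 87.2 to 277 in cKO, and their part in the marker values was not tested. Smooth muscle genes had a higher mean in cKO for 8 of 8 tested, 2 of them at an unadjusted p under 0.05 (2.37% of all tested genes). With the endothelial covariate 3 of 8 were higher. Pericyte genes were higher for 3 of 4 tested and mesothelial genes for 2 of 3. These lists also gave 0 calls, and their part in the marker values was not tested.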

How the data were processed

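The authors deposited 1 table of FPKM values per library (fragments scaled by transcript length and mapped fragments), per the file headers. The submitters' processing notes name Cufflinks 2.2.1 with Cuffdiff, TopHat2 2.1.1, SAMtools 0.1.18, Bowtie2 2.3.5.1 and the mm10 build. Annotation, settings and strand handling could not be taken from these sources, so they may differ from those used for positions. The FPKM of a gene moves with the share that all others take. Groups and replicate numbers came from the titles, and the design text counts 4 mice a genotype, 1 to a library.

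Values were transformed to log2(FPKM + 1). Genes averaging 1 FPKM or more were fitted with limma 3.58.1 in R 4.3.3 (2 groups, mean-variance trend), and p-values were adjusted by Benjamini-Hochberg over 11506 genes. Differences on this scale understate those of low genes. Single values were compared by two-sided exact permutation over 70 arrangements (smallest p 0.0286), with scipy 1.17.1 and numpy 2.4.6 in Python 3.11.15. Tables used pandas 2.3.3 and plots matplotlib 3.10.9. The procedure was tested on simulated data of 11506 genes with 4 mice per group. It called 62.4% of genes shifted by 0.5, 91.3% at 1 and 98.6% at 2, and 0.0699% of unshifted genes. Many shifted genes loosen the adjusted threshold, so these shares are not the power in the real libraries.

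Fragment counts were not used. Relative depth came from whole-number steps between low values (tolerance 0.002 on the log2 scale). Gene positions, overlaps and shared 50-base words came from GENCODE of the same build and promoters from RefSeq (GRCm38.p6). The markers and lists were chosen with earlier results of these data known. Named genes were all 7 markers and, from each list, up to 4 lowest in unadjusted p plus the 3 highest in mean FPKM; not all of these are printed. For each marker the 3 genes of highest r were also named, except 1 for Pi16 that is not reported here. As alternatives the pseudocount was 0.1 or 0.25, the filter was dropped or raised to a mean of 5, and the other choices were 4 other scalings, other eBayes settings, array weights, a replicate block, 2 covariates and each library left out.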

Additional observations from a re-analysis of the deposited data

Results flagged for a closer look

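Of 176 group-by-value sets examined by Dixon's test at 4 samples, 7 held a library that stood apart from the other 3, and chance gives about 1 in 20. None was a marker level itself. The ratio of Dpp4 to Ly6a was 0.0297 in control replicate 2, against 0.0269 in the other controls. In cKO replicate 1, Pdgfra was at 126 FPKM (others 163 to 167), Fap at 56.1 (69.0 to 70.9), Tek at 69.0 (82.9 to 85.0) and Glipr1 at 8.10 (3.54 to 4.12). Ly6e was at 242 in cKO replicate 4 (229 to 231), and Ccl21a at 4.49 in control replicate 3 (near 0 in the other controls).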

How the results depend on the processing

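The differences of Pi16, Dpp4 and Ackr4 kept their sign and 0 markers were called under all 22 alternatives. They ran from -0.50 to -0.26 for Pi16, from -0.37 to -0.14 for Dpp4 and from -0.29 to -0.06 for Ackr4. The 2 values nearest 0 for Dpp4 and Ackr4 came with the endothelial covariate, where neither kept an unadjusted limma p under 0.05. Ackr4 also did not keep it with quantile normalization (-0.18). Signs turned for markers whose difference was close to 0. Ly6a was at 0.0719 with quantile normalization, 0.0329 with rescaling to a fixed sum, 0.0413 with scaling to the pan-fibroblast genes, 0.0057 with array weights, 0.0039 with the epithelium covariate and 0.0761 with the endothelial covariate. Cd34 was at 0.0260 with quantile normalization and Ly6c1 at -0.0240 with the epithelium covariate. When a library was left out, Cd81 ran from -0.0198 to 0.0452, Ly6a from -0.0315 to 0.0220, Ly6c1 from -0.0171 to 0.0565 and Cd34 from -0.08 to -0.03. Without a library, genes called higher numbered 0 to 3 and genes called lower 1 to 2; the counts moved without control replicate 3 (1 and 2), cKO replicate 1 (3 and 1) or cKO replicate 2 (1 and 1), and the cause was not tested. Same-numbered mice did not deviate together (correlations 0.02 to 0.09, own number best for 0 of 4), so the numbers were not taken as pairs. With the replicate block the differences were -0.34 for Pi16, -0.32 for Dpp4 and -0.22 for Ackr4 (adjusted p = 0.898 each), and the counts of calls did not move. For Dpp4 the counting error of about 1.87% compares with a spread between mice of 8.85% in control and 11.3% in cKO.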
